A study of Mus musculus with 24 samples.

Results

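Transcripts of 48 cell cycle genes were followed in primary mouse dermal fibroblasts exposed to TWEAK, a cytokine of the TNF family that signals through the receptor Fn14. The genes are a named list, matched by symbol to the 13479 genes of the count table, and all 48 were found. They divide into 19 genes of the G1/S transition and DNA synthesis (S-phase genes), 28 genes of G2 and mitosis (mitotic genes) and the G1 cyclin Ccnd1. The fibroblasts were at passage 5 and came from NIK X mut mice (MUT; no label states which change the mutation makes), NIK knockout mice (KO) and wild-type littermates (WT). Map3k14 encodes NIK, a kinase at the head of noncanonical NF-kB signalling. MUT cells had 2 libraries, KO cells 2 and WT cells 4 at each of 3 times: after 6 h and after 24 h of TWEAK at 100 ng/ml, and untreated. All cells grew in the same serum-containing medium, and none of the labels names a second agent. Bulk MARS-seq was used, in which each transcript is tagged near its 3′ end and counted once by its unique molecular identifier (UMI). The library names give 3 h for the time that the sample descriptions give as 6 h, which is used here.

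Cycling cells transcribe these genes in turn. Cyclin D1, the product of Ccnd1, links growth signals to the retinoblastoma protein, whose phosphorylation frees E2F factors such as E2f1 to switch on genes for DNA replication. Genes of G2 and mitosis are switched on later, largely through CCAAT boxes, bound by NF-Y, and through the cell cycle genes homology region (CHR), where the DREAM complex represses them in resting cells and B-MYB and FOXM1 act in dividing ones. Resting fibroblasts hold little RNA of either group. In RNA from a whole culture, fewer cycling cells and less RNA per cycling cell cannot be told apart.

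The promoter sequences of both groups differ in these motifs. Examples are shown from 4 promoters of RefSeq (mouse GRCm38.p6), each from 250 bases before to 50 bases after the gene's start: Mcm5 and Mcm6, which encode subunits of the replicative helicase, stand for the S-phase genes, and Plk1, a mitotic kinase, and Cdc20, an activator of the anaphase-promoting complex, for the mitotic genes. Capitals mark CCAAT, the CHR element (TTTGAA or TTCGAA) and E2F sites (TTTCCCGC, TTTCGCGC, TTTGCCGC or TTTGGCGC), read on either strand, and E2F matches that overlap run together.
Mcm5 (GRCm38.p6, chr8:75109259-75109558, plus strand): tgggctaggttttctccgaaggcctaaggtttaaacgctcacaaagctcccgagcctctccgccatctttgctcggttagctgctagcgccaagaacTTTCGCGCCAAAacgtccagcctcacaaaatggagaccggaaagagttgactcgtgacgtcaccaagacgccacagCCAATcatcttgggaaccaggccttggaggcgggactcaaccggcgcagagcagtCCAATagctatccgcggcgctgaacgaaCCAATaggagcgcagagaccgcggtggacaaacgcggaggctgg
Mcm6 (GRCm38.p6, chr1:128359656-128359955, minus strand): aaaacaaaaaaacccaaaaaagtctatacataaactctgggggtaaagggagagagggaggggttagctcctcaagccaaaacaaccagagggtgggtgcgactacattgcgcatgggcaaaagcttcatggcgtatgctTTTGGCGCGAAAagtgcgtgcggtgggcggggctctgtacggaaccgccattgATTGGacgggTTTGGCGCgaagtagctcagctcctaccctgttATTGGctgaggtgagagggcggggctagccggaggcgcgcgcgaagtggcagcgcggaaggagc
Plk1 (GRCm38.p6, chr7:122159185-122159484, plus strand): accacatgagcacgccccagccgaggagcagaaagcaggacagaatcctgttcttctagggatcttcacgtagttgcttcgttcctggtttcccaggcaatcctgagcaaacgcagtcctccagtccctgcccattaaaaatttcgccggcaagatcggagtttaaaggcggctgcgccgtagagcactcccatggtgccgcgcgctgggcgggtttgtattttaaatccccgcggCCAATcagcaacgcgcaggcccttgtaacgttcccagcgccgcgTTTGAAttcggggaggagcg
Cdc20 (GRCm38.p6, chr4:118437294-118437593, minus strand): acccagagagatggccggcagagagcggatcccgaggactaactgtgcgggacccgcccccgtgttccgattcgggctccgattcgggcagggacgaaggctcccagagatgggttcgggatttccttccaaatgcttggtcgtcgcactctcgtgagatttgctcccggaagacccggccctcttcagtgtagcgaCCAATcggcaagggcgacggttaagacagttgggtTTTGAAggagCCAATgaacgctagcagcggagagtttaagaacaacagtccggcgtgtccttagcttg

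Mcm5 and Mcm6 each held E2F sites and CCAAT boxes and no CHR. Plk1 held 1 CCAAT box and Cdc20 held 2, and each had 1 CHR and no E2F site. The RefSeq promoter table matched 38 of the 48 genes, with 17 promoters for 15 S-phase genes and 24 promoters for 23 mitotic genes. An E2F site stood in 41.2% of the S-phase promoters, 4.17% of the mitotic promoters and 2.26% of all 32851 promoters of the same length. The CHR stood in 11.8% of the S-phase promoters, 79.2% of the mitotic promoters and 19.2% of all promoters, and CCAAT in 64.7%, 87.5% and 37.4% of the same sets. Both CCAAT and CHR were present in 75.0% of the mitotic promoters, 11.8% of the S-phase promoters and 7.52% of all promoters. The 26 CHR matches of mitotic genes had a median position of -16.5 from the start, and their 51 CCAAT matches one of -68. No promoter was matched for Aurkb, Ccna2, Ccnd1, Ccne2, Cdc25c, Gins2, Gmnn, Kif20a, Mcm4 and Tpx2. These matches describe letters in the window and do not show binding.

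**Figure D1:**
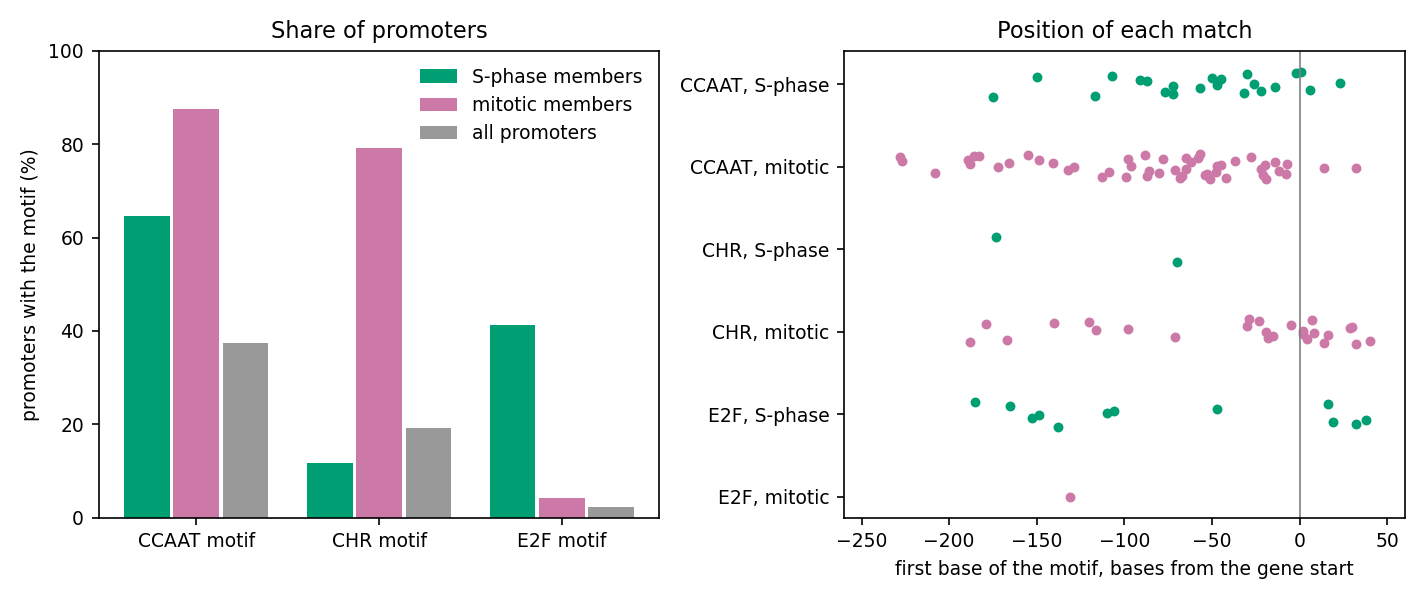
Left, the percentage of promoters that hold each of 3 motifs, for S-phase genes, mitotic genes and all promoters; right, the position of each match in bases from the gene's start. The E2F site stood in 41.2% of S-phase promoters and the CHR in 79.2% of mitotic promoters.

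The libraries held 889863 to 4342981 UMIs and 12333 to 13338 detected genes. The 48 genes took 135021 of 54968207 UMIs. Map3k14 had 0 or 1 UMI in each KO library and 63 to 164 in MUT libraries, against 34 to 186 in WT libraries. The 10 dermal fibroblast markers summed to 15780 to 28540 CPM (UMIs scaled to a common library size after TMM normalisation) in every library, and the marker lists of other skin cell types to at most 78.46 CPM. That highest sum was of muscle and pericyte markers in untreated WT. The count table held only 2 of 6 keratinocyte and 2 of 5 endothelial markers. It held 3 of 6 macrophage and leukocyte markers and 3 of 5 melanocyte and Schwann cell markers, so these sums miss genes. The labels do not say whether replicates were separate mice or cultures, so p-values measure the spread between libraries. Without the listed cell cycle genes, the first principal component (30.5% of the variance) still placed MUT and WT replicates 3 and 4 between 1.756 and 30.24 and KO and WT replicates 1 and 2 between -28.52 and -4.819. This division follows no label. The labels give untreated cells a single time, so effects of TWEAK and of time in culture cannot be told apart.

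The level of cell cycle RNA varied with time and, within WT, between replicates. The share of UMIs from the 48 genes was lowest in WT replicate 2 at 6 h, 0.1139% (95% exact binomial interval 0.1094 to 0.1185), and highest in WT replicate 4 at 24 h, 0.5011% (0.4909 to 0.5115); such intervals cover counting error only. In MUT the mitotic genes summed to 1690 and 1564 CPM untreated, 769.1 and 771.1 CPM at 6 h and 2331 and 2401 CPM at 24 h. In KO they summed to 485.1 and 419.5 CPM, 442.1 and 413.7 CPM, and 484.6 and 485.8 CPM at the same times. WT divided: replicates 1 and 2 had 494.1 and 395.7 CPM untreated, 480.2 and 369.2 CPM at 6 h and 871.7 and 781.7 CPM at 24 h, while replicates 3 and 4 had 1855 and 1827 CPM, 759.3 and 836.2 CPM, and 2673 and 2674 CPM. WT replicates 1 and 2 thus lay near KO before treatment and WT replicates 3 and 4 near MUT.

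The S-phase sums spanned a smaller range. They summed to 1150 and 1199 CPM untreated, 737.5 and 667.6 CPM at 6 h and 1660 and 1710 CPM at 24 h in MUT, and to 461.7 to 573.3 CPM over the 6 KO libraries. In WT replicates 1 and 2 they summed to 516.9 and 509.6 CPM, 500.4 and 473.8 CPM, and 908.1 and 843.1 CPM, and in WT replicates 3 and 4 to 1291 and 1245 CPM, 718 and 706 CPM, and 1791 and 1861 CPM. The mitotic sum divided by the S-phase sum was 0.777 to 0.960 in KO and in WT replicates 1 and 2, and 1.04 to 1.49 in MUT and in WT replicates 3 and 4. In each library of MUT and of WT replicates 3 and 4 that ratio was lowest at 6 h, for example 1.44, 1.06 and 1.49 at 0, 6 and 24 h in WT replicate 3.

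**Figure D2:**
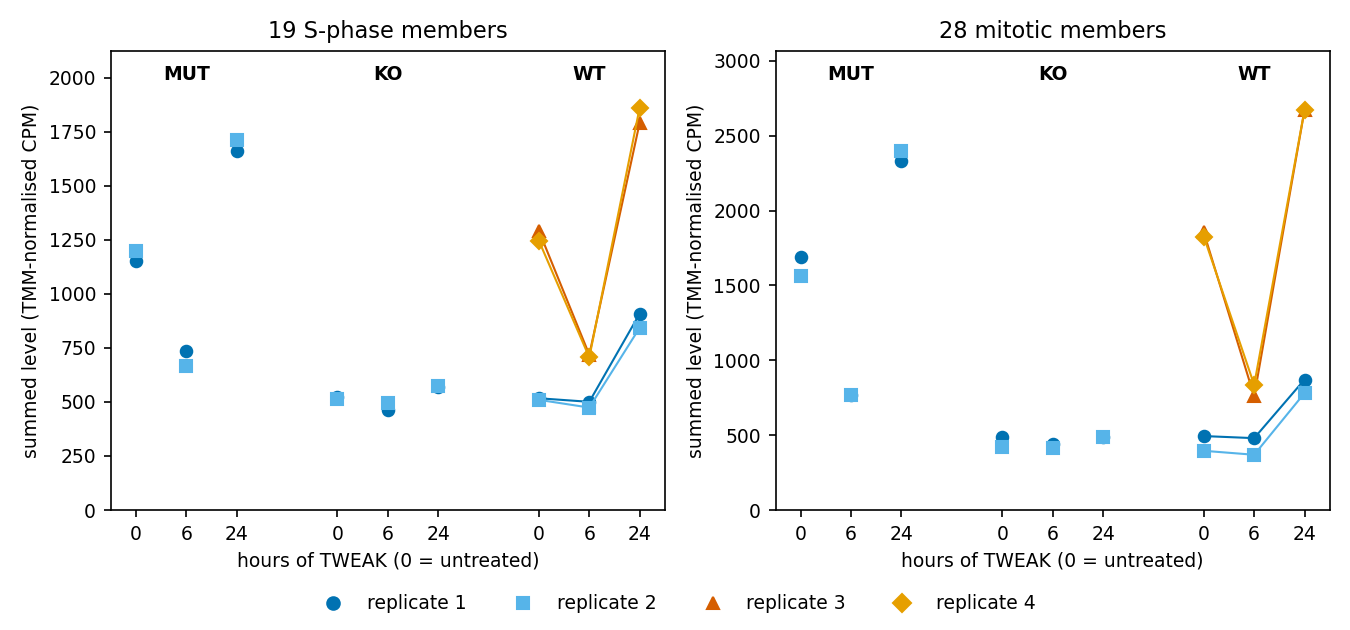
Summed CPM of the S-phase genes and of the mitotic genes in each of the 24 libraries, by genotype (MUT, KO, WT) and hours of TWEAK; points are libraries, and lines join WT libraries of the same replicate number. WT replicates 3 and 4 had 759.3 and 836.2 CPM of mitotic genes at 6 h and 2673 and 2674 CPM at 24 h, and KO libraries stayed between 413.7 and 485.8 CPM.

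Changes were also taken pair by pair, from a treated and an untreated library that share a replicate number. In MUT and KO such libraries did not deviate together across genes, so their pairs rest on the number alone. At 6 h, the median log2 change of the mitotic genes was -1.22 and -0.997 in MUT replicates 1 and 2, 0.03 and -0.03 in KO, and -0.09, -0.00, -1.34 and -1.07 in WT replicates 1 to 4. The S-phase genes gave -0.66 and -0.92 in MUT, -0.14 and -0.16 in KO, and 0.01, -0.01, -0.86 and -0.89 in WT. All 28 mitotic genes were lower in both MUT libraries and in WT replicates 3 and 4, while 16 and 14 of 28 were lower in WT replicates 1 and 2, and 13 and 16 in KO. The same numbers for all tested genes had medians within -0.034 and 0.008 in every pair at either time.

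At 24 h the WT libraries no longer divided in direction. The mitotic genes had median changes of 0.48 and 0.50 in MUT, -0.02 and 0.24 in KO, and 0.84, 0.94, 0.47 and 0.54 in WT replicates 1 to 4, and the S-phase genes 0.57 and 0.33 in MUT, 0.09 and -0.11 in KO, and 1.01, 0.76, 0.53 and 0.69 in WT. In WT, 26 to 28 of the 28 mitotic genes and 17 to 19 of the 19 S-phase genes were higher in each replicate. In KO, 13 and 18 of 28 mitotic genes and 14 and 8 of 19 S-phase genes were higher. WT replicates 1 and 2 started from about the same sums as KO, and their mitotic sums were 1.76 and 1.98 times the untreated sum at 24 h, beside 0.999 and 1.16 times in KO.

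**Figure D3:**
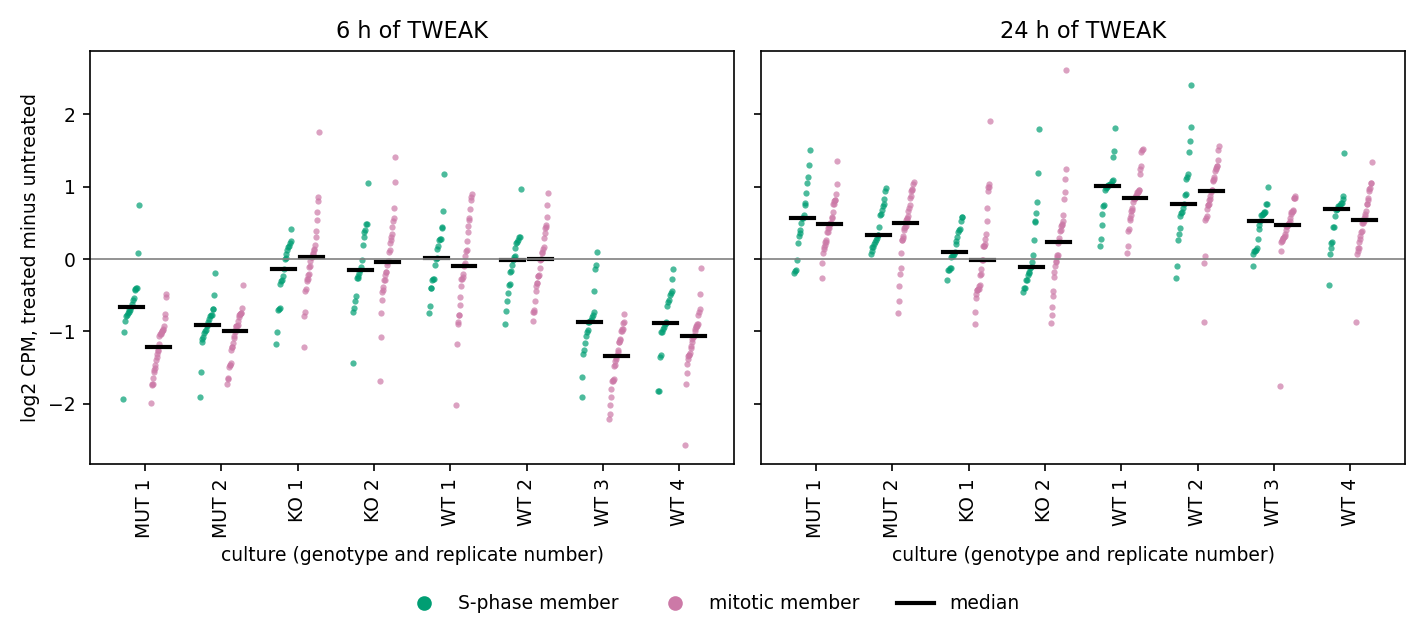
Log2 change of each S-phase and mitotic gene in each treated library, relative to its untreated counterpart of equal replicate number, at 6 h and 24 h, for MUT, KO and WT; each point is a gene and the black mark is the median. At 6 h the medians of the mitotic genes lay between -1.34 and -0.997 in MUT and WT replicates 3 and 4 and between -0.09 and 0.03 in the other pairs.

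In WT cells after 6 h of TWEAK, E2f1 (GRCm38, chr2:154559407-154569892, minus strand), a transcription factor that drives S-phase genes, was the 1 cell cycle gene to fall in the test over all libraries. E2f1 had 39.13, 23.4, 21.68 and 20.65 CPM in WT replicates 1 to 4 at 6 h, against 38.83, 44.39, 46.28 and 42.45 CPM untreated. Replicate 1 lay inside the range of the untreated libraries at 6 h, and the other 3 replicates lay below all of them. The log2 change was -0.77 ± 0.16 (SE; edgeR quasi-likelihood test, adjusted p = 0.00529, n = 4 each), and with only the 8 libraries of both times in the fit E2f1 no longer passed (adjusted p = 0.133). E2f1 was 1 of 47 tested, where 2.06% of all genes fell. In that fit 18 of 19 S-phase genes had a negative change, with a median of -0.56, and all 27 tested mitotic genes had one, with a median of -0.94.

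WT libraries of the same number deviated together across genes, so a fit with the replicate number as a block was set beside the first. In it 23 of 47 genes fell at 6 h, 7 S-phase and 16 mitotic, where 4.9% of all genes fell. Beside E2f1 (-0.78 ± 0.17, adjusted p = 0.00372), the S-phase genes that fell were the helicase subunits Mcm2, Mcm4, Mcm5 and Mcm7, the licensing inhibitor Gmnn and the thymidine kinase Tk1 (-1.14 ± 0.26, adjusted p = 0.00555). Of genes for entry into mitosis, Ccnb2, the partner of the mitotic kinase Cdk1, and the kinases Aurka (-0.96 ± 0.18, adjusted p = 0.00116) and Plk1 fell, as did the phosphatase Cdc25c. Kif20a, a kinesin of cytokinesis, had the smallest adjusted p (-1.04 ± 0.17, adjusted p = 0.000304). Cdc20 (-1.10 ± 0.23, adjusted p = 0.00242) and Ube2c (-0.72 ± 0.14, adjusted p = 0.00131), which act in the anaphase-promoting complex pathway, fell too. The remaining mitotic genes that fell were Bub1, Ndc80 and Cenpe of the kinetochore, Birc5 of the chromosomal passenger complex, the spindle genes Tpx2, Prc1 and Hmmr, the topoisomerase Top2a and the proliferation marker Mki67.

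The 23 genes were lower in each of WT replicates 3 and 4, with median changes of -1.25 and -1.06, and 15 and 17 of them were lower in replicates 1 and 2, with medians of -0.21 and -0.333. Of the 23, 11 were lower in all 4 replicates, Mcm2 and Mki67 among them. Kif20a had 17.79, 12.90, 43.35 and 40.15 CPM in WT replicates 1 to 4 at 6 h, against 21.7, 21.55, 95.11 and 111.3 CPM untreated. Cdc20 had 30.83, 16.24, 49.45 and 44.74 CPM at 6 h, against 28.55, 27.67, 137.6 and 134.4 CPM untreated. For both genes the 6 h values of replicates 3 and 4 were above the untreated values of replicates 1 and 2, so the groups overlapped although the paired changes in replicates 3 and 4 were large. Without WT replicate 3 the block fit gave 5 falls, without replicate 4 it gave 6, and without replicate 2 it gave 31. No share of all genes is given for these reduced fits, so these counts do not set the members apart.

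After 24 h of TWEAK, Ccnd1 (GRCm38, chr7:144929931-144939925, minus strand) was higher in every WT library. Ccnd1 had 523.8, 460.6, 370.7 and 413.8 CPM in WT replicates 1 to 4 at 24 h, against 333.8, 269.3, 254.3 and 216.7 CPM untreated. The groups did not overlap, and replicate 1 was highest both untreated and at 24 h. The log2 change was 0.72 ± 0.15 (edgeR quasi-likelihood test, adjusted p = 0.00427, n = 4 each), and the same ± 0.10 with the block (adjusted p = 1.89e-05). Ccnd1 was the 1 gene of 47 that rose in the test over all libraries, where 3.68% of all genes rose. It had 373.5, 303.8, 282.5 and 274.7 CPM at 6 h, where its change of 0.20 ± 0.15 did not pass (adjusted p = 0.551).

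With the replicate number as a block, 32 of 47 genes rose in WT at 24 h, 11 S-phase genes, 20 mitotic genes and Ccnd1, where 8.02% of all genes rose. The helicase subunits Mcm3, Mcm4 (0.80 ± 0.12, adjusted p = 0.000112), Mcm5, Mcm6 and Mcm7 rose, as did the loading factors Cdt1 and Cdc6, the ribonucleotide reductase subunits Rrm1 and Rrm2, Tk1, and Uhrf1, which guides maintenance DNA methylation (1.07 ± 0.17, adjusted p = 0.000167). Ccna2, the cyclin of S phase and G2, rose by 1.13 ± 0.19 (adjusted p = 0.000303) and Mki67 by 1.15 ± 0.21 (adjusted p = 0.000612). Other mitotic genes that rose were Top2a, Plk1, Aurka, Aurkb, Birc5, Cdc20, Cdc25c, Ube2c, the kinetochore genes Bub1b, Ndc80, Cenpa and Cenpe, the kinesins Kif20a and Kif23, and the spindle genes Nusap1, Prc1, Tpx2 and Hmmr. In this fit 2 of 10 dermal fibroblast markers rose and 6 fell. No share of all genes that fell is given for it, so the 6 does not set these markers apart. Summed, these markers had 15840 to 21440 CPM in WT at 24 h, against 19450 to 27090 CPM untreated, and their part in the changes of the cell cycle genes was not tested. Leaving out 1 WT replicate number gave 22 to 28 rises, the lowest without replicate 2, and no share of all genes is given for these fits.

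The same genes stood at different levels in different WT replicates. Rrm2 had 21.70, 29.64 and 45.59 CPM at 0, 6 and 24 h in WT replicate 1 and 15.76, 19.1 and 45.48 CPM in replicate 2. In replicate 3 it had 59.87, 23.71 and 102.5 CPM, and in replicate 4 68.82, 26.38 and 116.6 CPM. Rrm2, needed to make deoxynucleotides, was thus highest at 24 h in all 4 replicates, and lowest at 6 h in replicates 3 and 4 only. Top2a, which untangles replicated chromosomes, had 28.17, 36.76 and 69.53 CPM in replicate 1, 30.56, 25.79 and 74.67 CPM in replicate 2, 140.1, 52.16 and 222.6 CPM in replicate 3, and 133.1, 52.19 and 227.1 CPM in replicate 4. At 6 h the 4 Top2a values lay within 25.79 and 52.19 CPM, a narrower range than at 0 or 24 h.

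**Figure D4:**
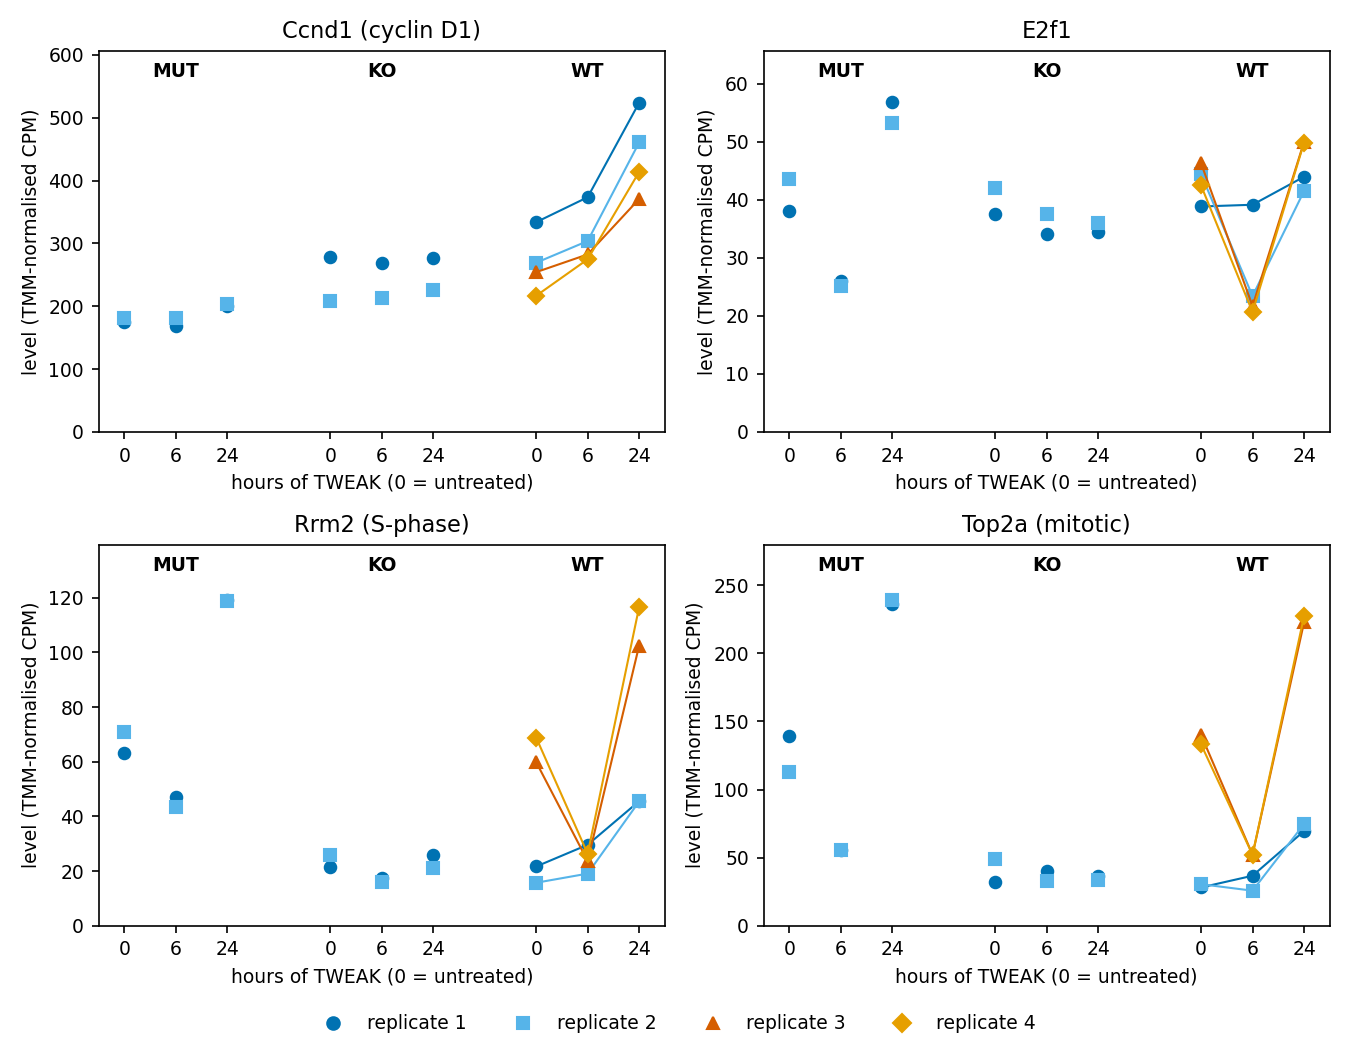
CPM of Ccnd1, E2f1, Rrm2 and Top2a in each library, by genotype (MUT, KO, WT) and hours of TWEAK; points are libraries, and lines join WT libraries of the same replicate number. Ccnd1 at 24 h was 370.7 to 523.8 CPM in WT, above every untreated WT library, and Top2a in WT replicates 3 and 4 was 52.16 and 52.19 CPM at 6 h.

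The time course showed other members rising late in all 4 WT replicates. Cdc6, which loads the helicase, had 1.523, 2.372 and 7.543 CPM at 0, 6 and 24 h in WT replicate 1, 0.965, 0.955 and 8.911 CPM in replicate 2, 9.765, 8.806 and 15.59 CPM in replicate 3, and 10.29, 2.294 and 16.97 CPM in replicate 4. Its values are low and counting error is large, but each replicate was highest at 24 h. Mcm5 had 23.22, 18.97 and 48.54 CPM in replicate 1, 19.62, 17.19 and 32.57 CPM in replicate 2, 67.93, 33.19 and 107.1 CPM in replicate 3, and 69.46, 36.71 and 127.5 CPM in replicate 4. Ccna2 had 8.755, 4.743 and 26.57 CPM, 8.686, 13.37 and 27.35 CPM, 52.22, 26.42 and 96.13 CPM, and 55.31, 20.65 and 98.51 CPM in replicates 1 to 4. Both genes were highest at 24 h in each WT replicate, and their untreated values in replicates 3 and 4 exceeded the 24 h values in replicates 1 and 2.

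Other members were higher at 24 h without passing. Pcna, the sliding clamp of DNA polymerase, had 79.04, 93.41, 110.0 and 130.8 CPM in WT replicates 1 to 4 at 24 h, against 56.72, 59.84, 98.5 and 124.1 CPM untreated, and passed neither fit. Tyms, the thymidylate synthase, had 36.40, 29.80, 78.52 and 70.60 CPM at 24 h, against 23.22, 21.88, 74.73 and 63.67 CPM untreated, and passed neither. Cdk1 had 50.51, 43.94, 149.0 and 183.9 CPM at 24 h, against 28.93, 29.92, 124.4 and 147.3 CPM untreated, and Ccnb1, its cyclin partner, 10.82, 7.682, 37.53 and 31.74 CPM, against 5.710, 7.399, 30.15 and 21.22 CPM. All 4 genes were higher at 24 h in each replicate without passing either fit. Cks2, a small subunit of cyclin-dependent kinases, had the lowest log2 change of the mitotic genes at 24 h in the fit over all libraries (-0.03), and Cdc6 the highest of all members (1.22).

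The step between 6 h and 24 h in WT gave the most calls over all libraries. By edgeR's quasi-likelihood test 13 of 47 genes were higher at 24 h than at 6 h, where 1.64% of all genes were. They were the S-phase genes E2f1, Gmnn, Mcm4, Mcm5, Mcm6, Mcm7, Rrm2 and Tk1 and the mitotic genes Mki67, Top2a, Nusap1, Ube2c and Ndc80. Tk1, which salvages thymidine, had 31.81, 34.41, 70.44 and 81.0 CPM in WT replicates 1 to 4 at 24 h, against 17.79, 10.51, 14.22 and 12.62 CPM at 6 h. The groups did not overlap, and the change was 2.01 ± 0.38 (adjusted p = 0.00675, n = 4 each). Mki67 had 11.15, 9.833, 47.05 and 38.86 CPM at 24 h, against 2.372, 1.910, 7.451 and 10.32 CPM at 6 h, a change of 2.21 ± 0.62 (adjusted p = 0.0475). Its groups overlapped, since 9.833 CPM in replicate 2 at 24 h was below 10.32 CPM in replicate 4 at 6 h.

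All 47 tested members had a positive change between 6 h and 24 h, with medians of 1.18 for S-phase genes and 1.51 for mitotic genes. Bub1, a spindle checkpoint kinase, had the highest (2.50) and Cks2 the lowest (0.49), and neither passed. For 10 of 19 S-phase and 4 of 28 mitotic genes every 24 h library was above every 6 h library, as was true of 4.27% of all genes tested. With the replicate block 45 of 47 were higher at 24 h, where 5.7% of all genes were. Leaving out single libraries moved the count over all libraries between 3, without the 24 h library of WT replicate 3, and 24, without that of WT replicate 2. With the 8 WT libraries of the 6 h and 24 h groups fitted alone, 0 of 43 tested members passed in edgeR, 39 had an unadjusted p under 0.05, and DESeq2 on all libraries called 20. No share of all genes is given for the fits with a library left out, for the 39 or for the 20. Those counts do not set the members apart.

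MUT cells at 6 h showed lower levels of nearly all members. Tk1 had 18.26 and 14.79 CPM in MUT replicates 1 and 2 at 6 h, against 72.22 and 57.90 CPM untreated, and was the 1 of 47 genes to fall in the fit over all libraries (-1.995 ± 0.50, adjusted p = 0.0394, n = 2 each), where 0.485% of all genes fell. Leaving out any of these 4 libraries raised its adjusted p to between 0.163 and 0.327. Fitted on the MUT libraries of both times alone, 38 of 47 genes fell, 14 S-phase and 24 mitotic, where 5.61% of all genes fell. Every library at 6 h was below both untreated libraries for 17 of 19 S-phase and 28 of 28 mitotic genes, as for 29.2% of all genes.

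In that fit Kif20a fell by 1.51 ± 0.16 on the log2 scale (adjusted p = 5.83e-05), with 38.63 and 33.98 CPM at 6 h in MUT, against 111.0 and 95.52 CPM untreated. Top2a had 55.49 and 55.57 CPM at 6 h, against 139.3 and 113.2 CPM untreated (-1.17 ± 0.16, adjusted p = 0.000307). Aurkb, the kinase of the chromosomal passenger complex, had 10.54 and 17.59 CPM at 6 h, against 36.93 and 37.95 CPM untreated (-1.32 ± 0.23, adjusted p = 0.00219). The groups were apart for all 3 genes. Ccna2 had 21.07 and 21.59 CPM, against 48.85 and 61.17 CPM, and Cdk1 56.19 and 59.56 CPM, against 163.6 and 102.1 CPM, and both fell too. E2f1 had 25.99 and 25.19 CPM at 6 h, against 38.10 and 43.51 CPM untreated, and fell with an adjusted p = 0.0362. Of licensing genes, Cdt1 and Cdc6 did not pass; Cdt1 had 37.23 and 37.58 CPM at 6 h, against 35.06 and 43.18 CPM untreated.

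MUT cells at 24 h had more cell cycle RNA than untreated MUT cells, but 0 of 47 genes passed in edgeR's fit over all libraries, with 3 at an unadjusted p under 0.05 and 0 by DESeq2, where 0.494% of all genes rose. On the MUT libraries of both times alone, 19 genes rose, 9 S-phase and 10 mitotic, where 5.41% of all genes rose. Mcm6 had 185.2 and 200.1 CPM at 24 h, against 89.28 and 100.8 CPM untreated (1.01 ± 0.13, adjusted p = 0.000339). Bub1b, of the spindle checkpoint, had 47.64 and 49.51 CPM, against 18 and 23.55 CPM (1.23 ± 0.18, adjusted p = 0.000932). Rrm2 had 119.3 and 118.7 CPM, against 63.11 and 70.99 CPM, and Plk1 170.8 and 209.2 CPM, against 108 and 108 CPM, and both rose. The 4 genes had both 24 h libraries above both untreated ones, as did 14 of 19 S-phase and 22 of 28 mitotic genes, beside 27.5% of all genes. Ccnd1 in MUT had 175.1 and 181.2 CPM untreated, 168.6 and 181.9 CPM at 6 h, and 201.1 and 203.8 CPM at 24 h, and did not pass at either time.

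KO cells showed no called change in any member. At 6 h 0 of 47 genes passed in edgeR, with 0 at an unadjusted p under 0.05 and 0 by DESeq2, where 0.0794% of all genes passed in either direction. At 24 h 0 passed, with 1 at an unadjusted p under 0.05 and 0 by DESeq2, where 0% of all genes passed. The S-phase median was -0.12 at 6 h and 0.10 at 24 h, and the mitotic median -0.06 and 0.12. Ccnd1 in KO had 278.1 and 208.0 CPM untreated, 269.0 and 212.6 CPM at 6 h, and 277.3 and 226.4 CPM at 24 h, with a log2 change of 0.05 ± 0.22 at 24 h. E2f1 had 37.52 and 42.02 CPM untreated, 34.01 and 37.60 CPM at 6 h, and 34.36 and 35.99 CPM at 24 h. Treated and untreated KO libraries overlapped for Ccnd1, while 3 of the 4 treated E2f1 values lay below both untreated ones, and E2f1 did not pass.

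Other KO values rested on few UMIs. Top2a had 32.34 and 49.02 CPM untreated, 40.19 and 32.78 CPM at 6 h, and 36.77 and 33.99 CPM at 24 h. Rrm2 had 21.56 and 25.91 CPM, 17.52 and 15.91 CPM, and 25.92 and 20.99 CPM at the same times, and Mcm5 17.68 and 23.11 CPM, 18.55 and 15.91 CPM, and 18.69 and 22.49 CPM. Treated and untreated libraries overlapped for these genes, except that both Rrm2 values at 6 h lay below both untreated ones. Mki67 was at 2.587 and 4.902 CPM untreated, 5.153 and 4.821 CPM at 6 h, and 1.206 and 2.499 CPM at 24 h, levels at which the SE of its log2 change at 24 h was 1.35. Bub1 lay at 0.4312 to 3.502 CPM over the 6 KO libraries.

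**Figure D5:**
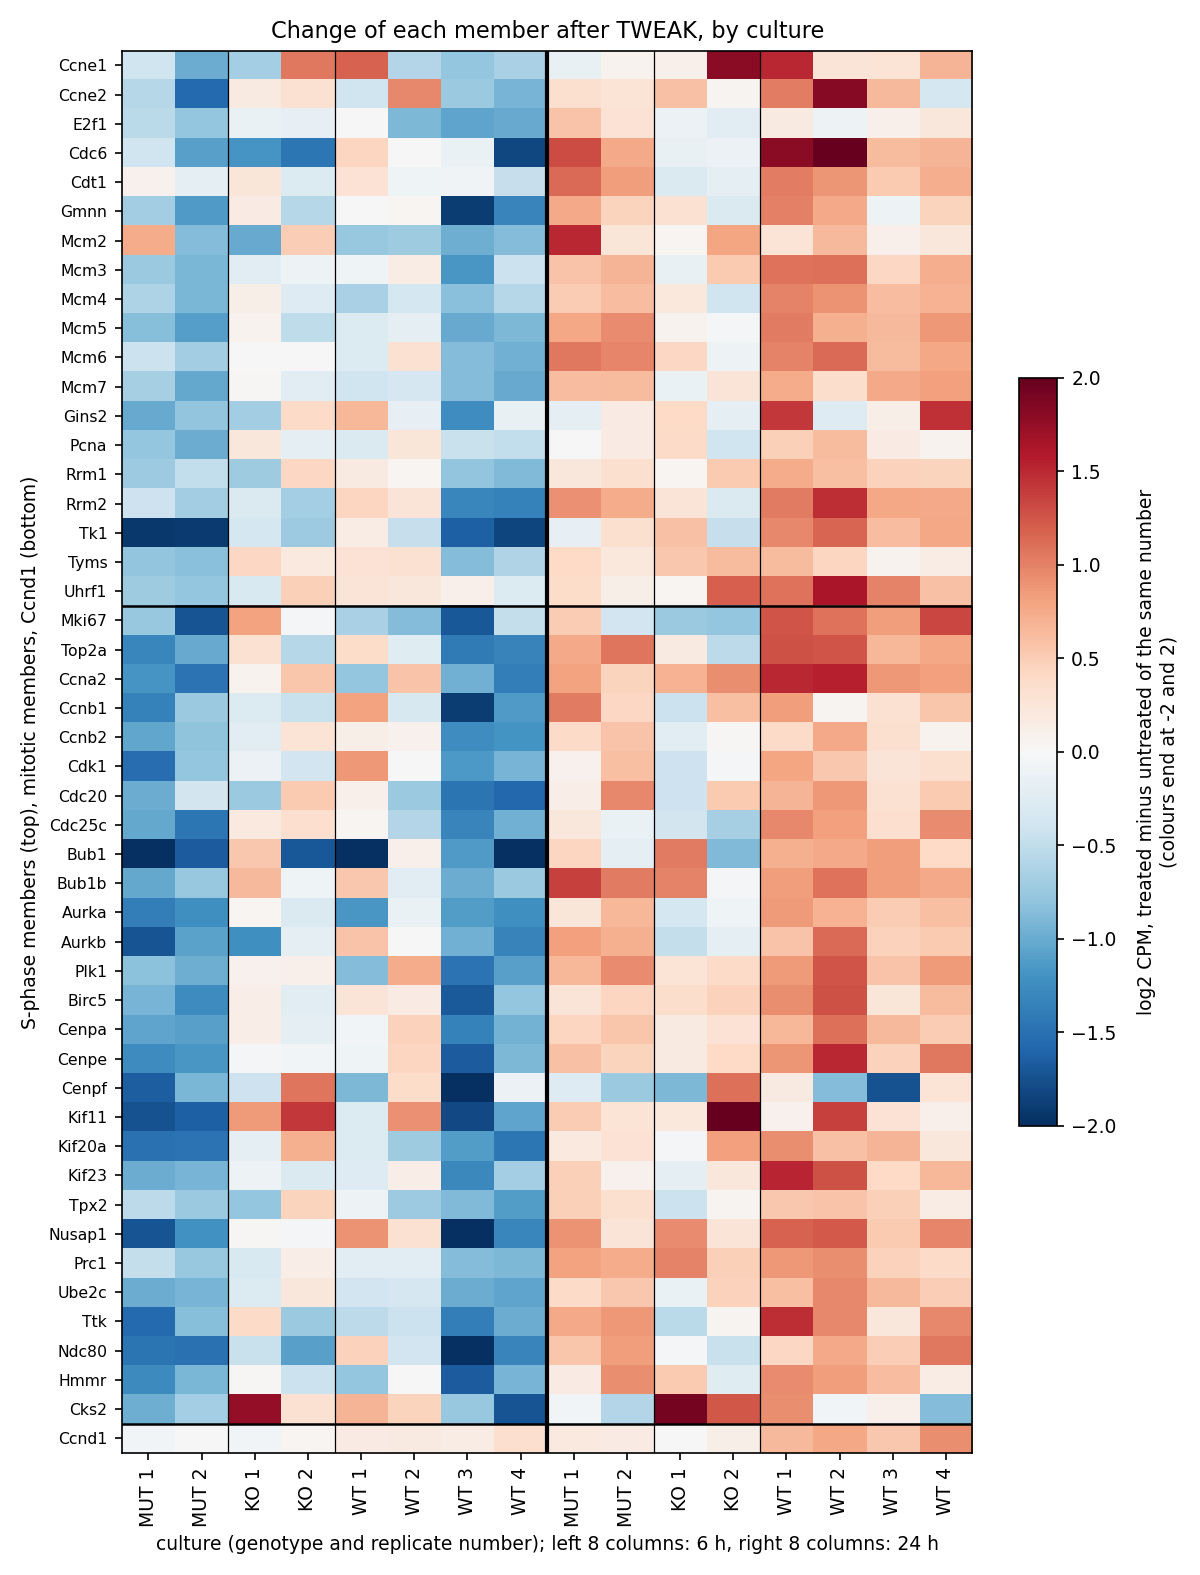
Log2 change of each of the 48 genes (rows) in each treated library, relative to its untreated counterpart of equal replicate number (columns: MUT, KO and WT at 6 h and 24 h), with colours ending at -2 and 2. Mitotic genes were lower at 6 h in all 28 cases in each MUT library and in WT replicates 3 and 4, and KO columns show both signs.

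The responses of the genotypes were then compared directly. For MUT against WT, 0 of 47 genes differed in response at 6 h and 0 at 24 h in edgeR, with 0 at an unadjusted p under 0.05 and 0 by DESeq2 at both times, where 0% of all genes differed at either time. For KO against WT at 6 h, 0 differed, with 1 at an unadjusted p under 0.05 and 0 by DESeq2, where 0.097% of all genes differed; the median difference (KO minus WT) was 0.53 for S-phase and 0.81 for mitotic genes. For KO against WT at 24 h, 0 differed, with 2 at an unadjusted p under 0.05 and 0 by DESeq2, where 0.265% of all genes differed, although 41 of 47 differences were negative, with medians of -0.56 and -0.51. With the replicate block 0 again passed at 24 h, where 1.41% of all genes passed, 14 had an unadjusted p under 0.05, and Ccnd1 had the smallest adjusted p (-0.67 ± 0.17, adjusted p = 0.055). No share of all genes is given for counts at an unadjusted p, so those counts do not set the members apart. With 2 KO libraries a group, a p that misses the threshold does not show that KO and WT cells respond alike or that they differ.

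The comparisons with KO depended on which WT libraries stood for WT. An edgeR fit chosen after the data were seen separated WT replicates 1 and 2 from 3 and 4. It set KO against replicates 1 and 2. In this fit Rrm2 (-1.30 ± 0.30, adjusted p = 0.0372) and Top2a (-1.47 ± 0.28, adjusted p = 0.00784) had a lower change at 24 h in KO than in those WT libraries. These were 2 of 47, where 0.573% of all genes were lower, and the division was drawn from these data and not from a label. In KO replicates 1 and 2 the log2 changes by shared number at 24 h were 0.256 and -0.293 for Rrm2 and 0.181 and -0.517 for Top2a. The median differences at 6 h were then -0.0455 for S-phase and -0.0859 for mitotic genes.

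Before treatment no member passed in either comparison with WT, although KO was lower for all 47. Between MUT and WT 0 of 47 passed in edgeR, with 3 at an unadjusted p under 0.05 and 0 by DESeq2, where 0% of all genes passed. The medians were 0.49 for S-phase and 0.63 for mitotic genes over all WT libraries, and -0.131 and -0.126 against WT replicates 3 and 4 alone. Between KO and WT 0 passed, with 17 at an unadjusted p under 0.05 and 0 by DESeq2, where 0.00882% of all genes passed, and medians were -0.84 for S-phase and -1.47 for mitotic genes. Against WT replicates 1 and 2 alone, these medians were 0.0517 and -0.026. Between MUT and KO 0 passed over all libraries, with 40 at an unadjusted p under 0.05 and 0 by DESeq2, where 0.00882% of all genes passed. These shares are for adjusted p under 0.05. No share is given at an unadjusted p, so the counts of 3, 17 and 40 do not set the members apart. In the 4 untreated MUT and KO libraries alone, 40 of 47 were higher in MUT, 13 S-phase and 27 mitotic genes, where 3.31% of all genes were. Plk1 had 108 and 108 CPM in MUT, against 24.15 and 18.91 CPM in KO (2.30 ± 0.21, adjusted p = 0.00047), and Birc5, the passenger protein survivin, 79.70 and 86.36 CPM in MUT, against 16.82 and 17.51 CPM in KO. Both genes also divided WT, with 26.64, 14.48, 146.9 and 129.3 CPM of Plk1 and 19.79, 13.51, 92.98 and 84.25 CPM of Birc5 in untreated WT replicates 1 to 4, so the genotype and the division among WT libraries cannot be told apart.

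Other cell cycle genes were counted from 2 further lists. Of 36 tested genes of a second S-phase list, 7 were higher in WT at 24 h than at 6 h in the fit over all libraries, among them the polymerase subunit Pole and the ligase Lig1, and 25 with the replicate block, where 1.64% and 5.7% of all genes were. Of 42 tested genes of a second G2/M list, 9 were higher over all libraries and 38 with the block. With the block, 6 of the second S-phase list fell and 1 rose at 6 h in WT, and 11 of the second G2/M list fell, where 4.9% of all genes fell and 6.69% rose. At 24 h 18 and 22 rose, where 8.02% of all genes rose. In KO at 24 h 0 of either list passed in edgeR, with medians of 0.02 for the second S-phase list and 0.11 for the second G2/M list.

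Several genes that act before S phase rose at 6 h. The D cyclin gene Ccnd3 was lower in WT and MUT libraries, but in WT it did not pass the test over all libraries. Of 20 tested genes of G1 progression, 6 rose in WT at 6 h in the fit over all libraries and 0 fell, where 4.35% of all genes rose and 2.06% fell; with the block 6 rose and 2 fell. Cdk6, the kinase partner of D cyclins, had 97.23, 99.34, 149.0 and 120.4 CPM in WT replicates 1 to 4 at 6 h, against 30.07, 31.53, 53.07 and 52.74 CPM untreated (1.497 ± 0.20, adjusted p = 3.01e-05). Myc, a growth-promoting transcription factor, had 94.86, 76.42, 159.9 and 181.2 CPM, against 63.19, 41.18, 52.22 and 54.67 CPM (1.29 ± 0.21, adjusted p = 0.000415). Neither gene's groups overlapped, and both were higher in all 4 replicates. The AP-1 gene Fosl1 (1.69 ± 0.29) was higher in all 4 replicates and rose too. The matricellular gene Ccn2 had 373.5, 119.9, 2121 and 2435 CPM at 6 h, against 398.2, 140.3, 249.2 and 368.5 CPM untreated, and passed (2.13 ± 0.55, adjusted p = 0.0196). It was higher in WT replicates 3 and 4 and slightly lower in replicates 1 and 2. In MUT at 6 h Cdk6, with 128.5 and 101.1 CPM, against 46.74 and 44.16 CPM untreated, Myc and Fosl1 rose, where 1.5% of all genes did, and in KO 0 of 20 passed in edgeR at 6 h or 24 h. In KO Cdk6 had 85.54 and 84.85 CPM at 6 h, against 37.52 and 63.73 CPM untreated, and Myc 51.53 and 53.03 CPM, against 50.02 and 32.21 CPM. The KO libraries treated for 6 h lay above both untreated KO libraries for both genes without passing the test. Cdk6 stayed raised at 24 h in WT (1.23 ± 0.19, adjusted p = 0.000214). Ccnd3 had 206.3, 262.2, 361 and 290.2 CPM in WT replicates 1 to 4 at 6 h, against 299.6, 393.4, 501 and 560.2 CPM untreated. The WT groups overlapped, since 361 CPM in replicate 3 at 6 h was above 299.6 CPM in untreated replicate 1. In MUT Ccnd3 had 311.2 and 299.8 CPM, against 418.1 and 494.3 CPM. In KO it had 257.6 and 323.5 CPM at 6 h, against 368.7 and 320.7 CPM untreated, and these libraries overlapped. Ccnd2, another D cyclin gene, had 728.4, 836.7, 842.9 and 858.2 CPM in WT at 24 h, against 1187, 1052, 1199 and 1271 CPM untreated. The rise of Ccnd1 was thus not shared by all D cyclin genes.

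Of 24 tested cell cycle brakes, 1 rose and 1 fell in WT at 6 h in the fit over all libraries, shares near those of all genes (4.35% rose and 2.06% fell), and 2 rose and 3 fell with the block. Cdkn2d, an inhibitor of the kinases that partner D cyclins, had 29.64, 18.63, 19.64 and 18.93 CPM in WT replicates 1 to 4 at 6 h, against 40.73, 35.39, 64.96 and 65.60 CPM untreated (-1.28 ± 0.24, adjusted p = 0.00139). In MUT it had 22.48 and 19.59 CPM at 6 h, against 62.87 and 62.48 CPM untreated (-1.58 ± 0.32, adjusted p = 0.00981), and in KO 46.38 and 34.71 CPM, against 45.28 and 43.42 CPM. The treated and untreated libraries were apart in WT and in MUT and overlapped in KO. Gadd45b, a stress gene that NF-kB induces, rose in WT at 6 h (0.93 ± 0.22, adjusted p = 0.00918), and Cdkn1c, an inhibitor of cyclin-dependent kinases, fell at 24 h (-1.35 ± 0.30, adjusted p = 0.00592), where 3.19% of all genes fell. Cdkn1a, the p21 inhibitor, passed in no genotype; in WT at 6 h its change was -0.17 ± 0.23 (adjusted p = 0.779).

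In the authors' deposited table, 11 S-phase and 7 mitotic members were called higher in WT at 24 h than at 6 h, as were 1.65% of all its genes. The authors' deposited table called 2 S-phase members lower in WT at 6 h, where 1.68% of all genes were, and 1 in MUT at 6 h, where 0.534% were. The authors' deposited table gave Ccnd1 in WT at 24 h a log2 change of 0.71 with an adjusted p of 0.000202.

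Reads of some members may be shared. In the GRCm38 annotation 13 of the 48 genes have an exon that overlaps a gene on the opposite strand and 2, Mcm7 and Top2a, one on the same strand, and the strand setting of the counting is not given in the sources used here. Pcna, Tyms, Ccnb1 and Ccnb2 have named pseudogenes. The 48 genes lie on 17 chromosomes. Cenpf, of the kinetochore, was too low to test, at 0 to 5.944 CPM.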

How the data were processed

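The authors counted UMIs per gene in 24 MARS-seq libraries, and the deposited table holds those counts beside 48 normalised columns not used here and their own log2 fold changes and p-values, which are printed only where the authors' deposited table is named. Per the submitters' processing notes, cutadapt, STAR 2.7.10a, HTSeq and DESeq2 were used with GRCm38 (mm10); filters and the strand setting are not given in the sources used here, and every deposited gene reaches 6 counts in some library. The log2 fold changes and adjusted p-values of the authors' deposited table were not recomputed. Here edgeR 4.0.16 (R 4.3.3) fitted 9 groups of genotype and time to the counts, with TMM scaling, its filter on low counts (11337 of 13479 genes tested, 2142 left out), quasi-likelihood tests and Benjamini-Hochberg adjustment over all tested genes at 0.05. SEs are the log2 change divided by the square root of F, and log2 changes of single pairs use a prior count of 2. Shares of all genes that passed, rose or fell are for adjusted p under 0.05, also where a count at an unadjusted p stands beside them. The script was tested on simulated data. The members, lists and alternatives were chosen with earlier results of these data known. Genes with every library's value were fixed as a list, beside the highest and lowest of each phase and those of smallest adjusted p; Kif20a, Bub1b and Cdt1 came in through the last rule or were chosen after their values were seen.

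Replicate numbers were taken to pair WT libraries, whose same-number deviations from the group means correlated at 0.328 to 0.688 in every pair of times. For MUT and KO libraries these correlations were -0.282 to 0.0996, so their changes by shared number rest on the label alone. The highest correlation with another number was 0.016 to 0.24 for WT replicates 1 and 2. For WT replicates 3 and 4 it was 0.242 to 0.505, below the same-number value each time but in some cases close to it. How much of the WT correlation comes from the division among WT libraries was not tested. Alternatives were DESeq2 1.42.0, its size factors, no filter, a replicate block, fits on the compared groups alone, each library left out, and WT replicates 1 and 2 and replicates 3 and 4 as separate groups. Totals of 889863 to 4342981 UMIs set the precision. Of 276 library pairs 0 were identical.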

Additional observations from a re-analysis of the deposited data

Results flagged for a closer look

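In 61 sets of 4 WT libraries or of 4 paired WT changes, 1 held a value that stood apart from the other 3. It was E2f1 in WT replicate 1 at 6 h, at 39.13 CPM, against 23.4, 21.68 and 20.65 CPM in replicates 2 to 4. Chance gives about 1 in 20 for values that form a single group. The rule cannot flag a set that divides 2 and 2, such as Plk1 in untreated WT, so that rate does not apply to such sets.

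Of the 48 genes, 7 at 6 h and 8 at 24 h moved one way in both MUT libraries and the other way in both KO libraries, differences that were not tested. The share of all genes that did so was not counted, so these counts do not set the members apart from other genes. They also rest on MUT and KO pairs that share only a number. Values follow for the members that did so among the 17 genes fixed for display in every library. At 6 h the log2 change in MUT replicate 2, the same in sign as replicate 1, was -1.56 for Ccne2, -0.833 for Tyms, -1.47 for Ccna2 and -0.978 for Plk1, and the KO changes were positive. At 24 h the change was 0.566 for E2f1, 1.3 for Cdc6 and 0.815 for Aurkb in MUT replicate 1 and 0.602 for Cdk1 in MUT replicate 2, and the KO changes were negative.

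At 24 h, 8 of the 48 genes were lower in both KO libraries and higher in all 4 WT libraries. Each library was set against the untreated library of its number, which in KO is a label only. The share of all genes with this pattern was not counted, so the count does not set the members apart. Of the 8 genes, 4 are among the same 17 genes. The changes of these 4 were -0.153 for Cdc6, -0.42 for Cdk1 and -0.484 for Aurkb in KO replicate 1, and -0.776 for Mki67 in KO replicate 2. The difference between the KO and WT responses was tested over all libraries by edgeR and passed for none of these 4, with adjusted p = 0.837 for Cdc6, 0.924 for Cdk1, 0.858 for Aurkb and 0.809 for Mki67. With WT replicates 1 and 2 as the comparison, the difference passed for Rrm2 (edgeR, adjusted p = 0.0372) and Top2a (adjusted p = 0.00784), where 0.573% of all genes were lower in KO. That division of WT was drawn from these same data, so these p-values do not settle whether KO and WT responses differ.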

How the results depend on the processing

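No gene that passed the test changed direction in any alternative run. Counts of cell cycle genes past the test moved with the fit, and the cause was not tested. Where no share of all genes was given above, a count in this section does not set the members apart from other genes. DESeq2 gave 2 in WT at 6 h and 20 in WT at 24 h against 6 h; DESeq2 size factors gave 11 and no filter 10 in the second. With the replicate block the counts were 23, 32 and 45 in WT at 6 h, at 24 h and at 24 h against 6 h, 27 and 6 in MUT at 6 h and 24 h, and 0 in KO; MUT and KO libraries share only a number. On the compared groups alone they were 0 in WT at 6 h, 0 in WT at 24 h against 6 h, 38 and 19 in MUT at 6 h and 24 h, and 40 in untreated MUT against KO. With WT replicates 1 and 2 and replicates 3 and 4 as separate groups they were 21, 36 and 44 in WT, 34 and 11 in MUT, 40 in untreated MUT against KO and 2 for the KO minus WT response at 24 h; medians were then -0.0455 and -0.0859 (S-phase, mitotic) for KO minus WT at 6 h, -0.904 for S-phase at 24 h, -0.131 and -0.126 for untreated MUT against WT, and 0.0517 and -0.026 for untreated KO against WT. Crossing the KO numbers gave 1 for the KO minus WT response at 24 h.

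Leaving out 1 library gave counts of 1 to 2 in WT at 6 h, 1 to 4 in WT at 24 h, 3 to 24 in WT at 24 h against 6 h, and 0 in MUT at 6 h. S-phase and mitotic medians then ranged, for WT at 6 h, from -0.795 to -0.255 and from -1.23 to -0.378; WT at 24 h, 0.514 to 1.04 and 0.329 to 1.07; WT at 24 h against 6 h, 1.01 to 1.42 and 1.21 to 1.85. MUT at 6 h gave -0.876 to -0.7 and -1.23 to -1.12, and at 24 h 0.348 to 0.591 and 0.428 to 0.515. KO at 6 h gave -0.162 to -0.0469 and -0.126 to -0.0081, and at 24 h -0.0236 to 0.194 and -0.0162 to 0.175. MUT minus WT gave -0.59 to 0.00845 and -0.755 to -0.0046 at 6 h, and -0.385 to 0.138 and -0.524 to 0.192 at 24 h. KO minus WT gave 0.18 to 0.677 and 0.428 to 1.09 at 6 h, and -0.931 to -0.314 and -0.909 to -0.227 at 24 h. Untreated MUT against WT gave 0.239 to 0.809 and 0.344 to 1.08, MUT against KO 1.18 to 1.37 and 1.97 to 2.09, and KO against WT -1.1 to -0.511 and -1.8 to -0.973.

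With the block and 1 replicate number left out, the WT counts at 6 h were 28, 31, 5 and 6 without numbers 1 to 4, those at 24 h 27, 22, 28 and 27, and those at 24 h against 6 h 44, 46, 38 and 38. MUT at 6 h gave 3 without number 1 and 1 without number 2, with S-phase medians of -0.915 and -0.654, and MUT at 24 h an S-phase median of 0.33 without number 1. The KO S-phase median at 24 h was -0.108 without number 1 and the mitotic median at 6 h 0.0203 without number 2.

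Against the mean of the untreated libraries, S-phase and mitotic medians were, in WT replicates 1 to 4, -0.622 and -0.992, -0.83 and -1.16, -0.146 and -0.253, and -0.0653 and -0.132 at 6 h, and 0.238 and -0.0716, 0.134 and -0.212, 1.3 and 1.55, and 1.33 and 1.56 at 24 h. MUT gave a mitotic median of 0.452 in replicate 1 and medians of 0.509 and 0.46 in replicate 2 at 24 h, and KO S-phase medians of -0.0968 and -0.0444 at 6 h. Of 1915 alternatives for 128 results on single genes, 1635 kept direction and side of the threshold, 204 newly passed and 76 no longer passed.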
